A study of Mus musculus with 8 samples.

Results

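The inflammasome genes described here are Nlrp3, Nlrc4, Naip2, Naip5, Aim2, Pycard, Casp1, Casp4, Gsdmd and Il1b, 10 of the 48709 genes in the deposited expression table. They were taken by symbol, and their introns by the gene name in the intron tables: 90 introns are listed, of which 81 are in all 8 tables with no mark for a known exon or an antisense gene. The data are 8 RNA-seq libraries, made from the polyadenylated RNA of mouse bone marrow and divided among 5 groups. The untreated groups are MDP (1 library, labelled wild type), cMoP (2 libraries, labelled wild type and described as FL_FL), Ly6Chi monocytes (2 libraries, labelled wild type and described as FL_FL) and Ly6Clo monocytes (1 library, labelled wild type). The last group is Ly6Chi monocytes with a knockout of Upf2 (2 libraries), and the labels name no Cre driver and no age, sex or strain of the mice. In this field MDP is short for the progenitor of monocytes and dendritic cells, and cMoP for the more restricted monocyte progenitor downstream of it. FL_FL is the usual notation for a floxed gene. The labels' cell type tag reads monocytic cell line, against their own source names, which give bone marrow. Nothing in them says that replicates are different animals. The p-values therefore rest on the spread of these samples alone, and that spread may be technical.

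An inflammasome is a protein platform that myeloid cells build when a sensor in the cytosol meets a sign of infection or damage. NLRP3 responds to disturbed membranes and ion balance, NAIP proteins bind bacterial flagellin or secretion needles and recruit NLRC4, and AIM2 binds DNA. Most sensors work through the adaptor ASC, encoded by Pycard, to activate caspase-1, while caspase-11, encoded in mice by Casp4, binds bacterial lipopolysaccharide itself. The caspases cut gasdermin D, encoded by Gsdmd, whose fragment makes pores in the membrane, and caspase-1 matures the cytokine interleukin 1 beta, encoded by Il1b. In resting macrophages Nlrp3 and Il1b are known to be held low until a priming signal.

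The libraries differed in ways that touch the introns. Reads across exon-intron boundaries numbered between 6.09 (cMoP replicate 2) and 11.6 (Ly6Clo) per 100 spliced reads, out of 28925018 to 37833159 spliced reads per library. The lean of spliced reads to the 3′ end of genes, as the median log2 ratio of the 3′ to the 5′ part over 5560 genes, was 0.73 in cMoP replicate 2 and 0.69 in knockout replicate 1, between 0.51 and 0.52 in the other cMoP and knockout libraries, and between 0.34 and 0.38 in the rest. Flt3 was highest in MDP (197 TPM), Mpo and Elane in cMoP (Elane at 5617 and 4842 TPM), and Ccr2 in Ly6Chi (1401 and 1357 TPM). Nr4a1, Treml4 and Ace were highest in Ly6Clo, Ace at 1164 TPM. The level of Upf2, a core factor of nonsense-mediated decay, did not separate the knockout: it was 18.2 to 23.1 TPM in all 8 libraries. Reads spliced from exon 2 to exon 3 of Upf2, the exons the labels name for their PCR, numbered 10 and 13 in the knockout libraries and 41 and 45 in Ly6Chi. They numbered 38 and 16 in cMoP, 59 in MDP and 39 in Ly6Clo, so cMoP replicate 2, which has the strongest 3′ lean, came close to the knockout at this junction. TPM, the unit of the expression table, is a share of all transcripts that is corrected for their length, so genes can be compared within a library.

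All 5 sensors were lower in both cMoP libraries than in either Ly6Chi library. The share of all genes in that order was not counted, nor the share with all precursor libraries below all monocyte libraries. For comparison, limma called 32.3% of all genes tested higher from cMoP to Ly6Chi, but the share in that order can be far larger than the share called. In the knockout, limma called 1 gene of 13126 lower, while 45.5% had both knockout libraries below both Ly6Chi libraries. Nlrp3 stood at 4.01 TPM in the MDP library and 7.98 and 1.78 TPM in the cMoP pair, and at 46.5 and 46.4 TPM in the Ly6Chi pair, 33.1 in Ly6Clo and 38.2 and 34.2 in the knockout pair. Its precursor libraries all lay below its monocyte libraries, with no overlap. Nlrc4, the adaptor-like partner of the NAIP sensors, was the lowest of the sensors in Ly6Chi: MDP had 6.65 TPM, the cMoP pair 5.98 and 2.12, the Ly6Chi pair 16.1 and 13.7, Ly6Clo 21.4 and the knockout pair 10.7 and 12.5. Naip2, whose protein detects the rod protein of bacterial secretion systems, had 4.54 TPM in MDP and 27.3 and 20.1 in the cMoP pair. The Ly6Chi pair had 81.6 and 71.8 TPM, Ly6Clo 84.1 and the knockout pair 56.9 and 59.5. Naip2 was the one member with both cMoP libraries several-fold above MDP. Naip5, whose protein detects flagellin, had 6.33 TPM in MDP and 15.9 and 5.42 in the cMoP pair, then 64.8 and 55.7 in the Ly6Chi pair, 152 in Ly6Clo and 36.1 and 40.04 in the knockout pair. The Ly6Clo library was above all others. Aim2, the DNA sensor, had 51.95 TPM in MDP and 54.1 and 30.1 in the cMoP pair, then 109 and 101 in the Ly6Chi pair, 144 in Ly6Clo and 60.4 and 60.8 in the knockout pair. It was the only sensor with at least 30.1 TPM in every library.

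Pycard, Casp1 and Gsdmd were well read in the precursors already, and Casp4 and Il1b were low there. Pycard was the most abundant member in 7 libraries: MDP had 141 TPM, the cMoP pair 148 and 158, the Ly6Chi pair 252 and 269, and the knockout pair 329.9 and 314. It was lowest in Ly6Clo, at 103 TPM. Casp1 had 54.1 TPM in MDP and 56.5 and 54.01 in the cMoP pair, then 98.5 and 94.99 in the Ly6Chi pair, 107.5 in Ly6Clo and 97.3 and 100.3 in the knockout pair. For Casp1 the 3 precursor libraries lay apart from the 5 monocyte libraries, a separation not counted over all genes. Within each set its values were close. Casp4, its neighbour on chromosome 9, showed the same separation: MDP had 8.66 TPM, the cMoP pair 12.05 and 11.3, the Ly6Chi pair 44.1 and 51.6, Ly6Clo 49.7 and the knockout pair 40.8 and 47.1. Gsdmd, the pore former, had 47.7 TPM in MDP and 51.1 and 41.96 in the cMoP pair, then 113 and 119 in the Ly6Chi pair, 192 in Ly6Clo and 102 and 104 in the knockout pair. Il1b, the cytokine, had 1.89 TPM in MDP and 1.5 and 0.29 in the cMoP pair, then 6.58 and 24.6 in the Ly6Chi pair, 163 in Ly6Clo and 31.4 and 9.15 in the knockout pair. Its replicates differed several-fold in every replicated group.

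**Figure D1:**
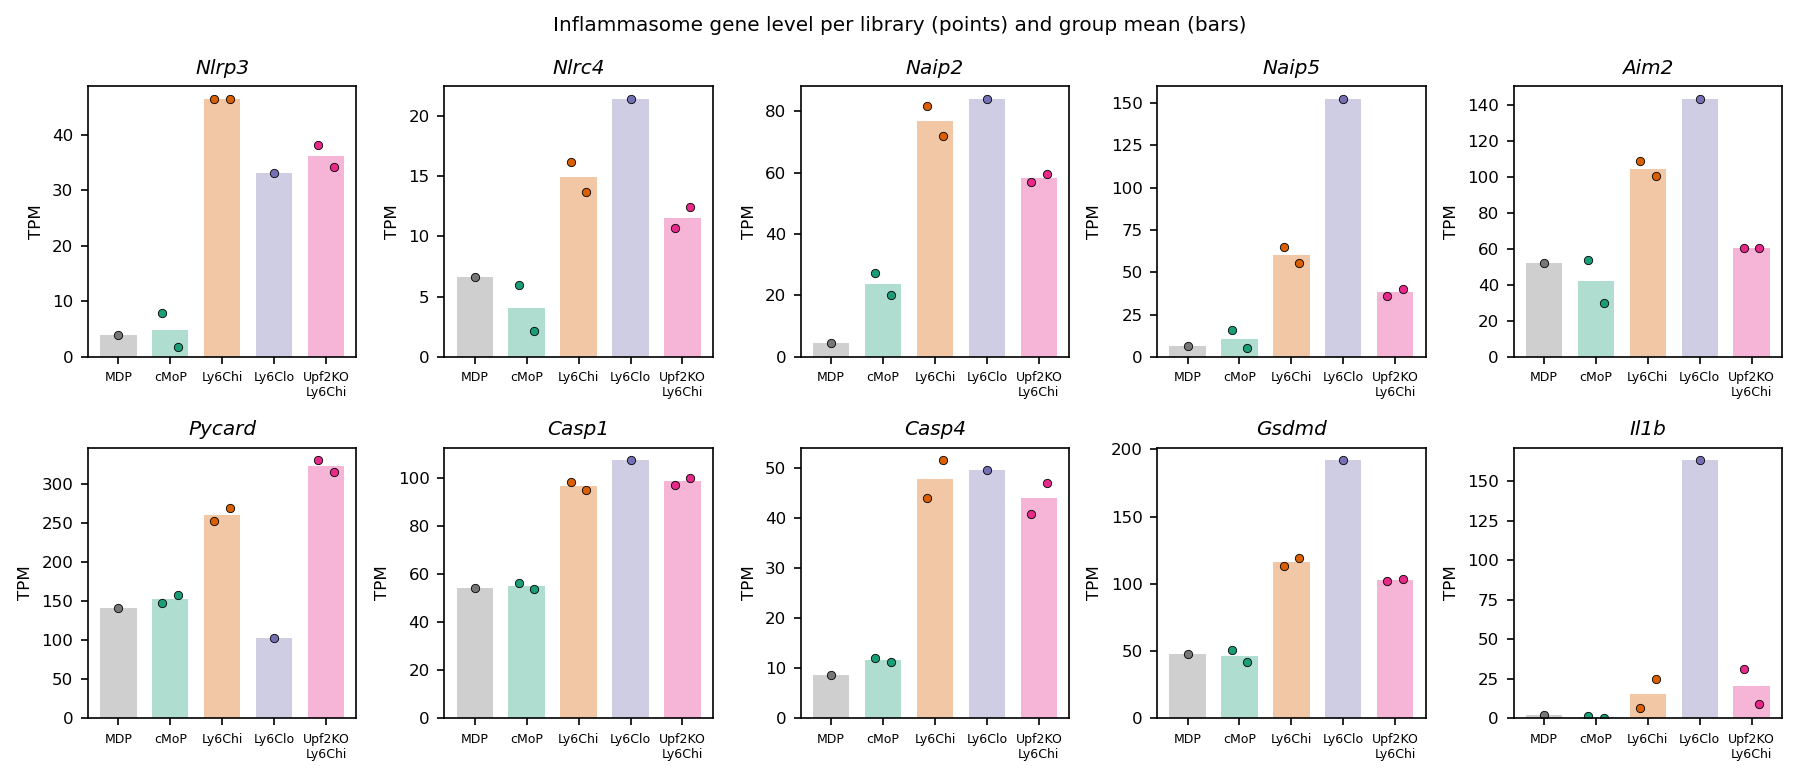
Level of each inflammasome gene in TPM (y axis, linear from 0) in the 8 libraries, with 1 point per library and bars for the group mean. In every panel both Ly6Chi points lie above both cMoP points, an order whose share over all genes was not counted. In the Pycard panel the Ly6Clo library (103 TPM) lies below all others.

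From MDP to cMoP only Naip2 passed the test. It rose by 2.14 ± 0.22 (log2 of TPM + 1, SE) with an adjusted p of 0.0103 in limma, a 5.22-fold higher mean of 23.7 ± 5.06 TPM (SD, n = 2) against 4.54 in the single MDP library. The other 9 members did not pass, and 5 of the 10 log2 changes were above 0, or 8 with each library centred on the median of the genes tested. Of all 13126 genes tested, 1.35% were called higher and 2.52% lower, and the median gene changed by -0.28, so that relative to it Naip2 changed by 2.43. Among 42 tested genes of a wider list of inflammasome regulators, substrates and receptors, 0 were called higher and 2 lower: Il1r1, the signalling receptor of interleukin 1 (7.61 TPM in MDP against 1.1 and 0.51 in cMoP), and Il18rap, a subunit of the interleukin 18 receptor (15.9 TPM in MDP against 4.92 and 3.21 in cMoP). Naip2 did not pass with only the groups compared in the fit, with no filter on low values, or without either knockout replicate (the same log2 change of 2.14 in each). Without cMoP replicate 1, Nlrp3 (-0.85), Nlrc4 (-1.29) and Aim2 (-0.77) passed as lower as well, and without cMoP replicate 2, Naip5 (1.20) passed as higher.

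From cMoP to Ly6Chi all 10 members rose. In this comparison 32.3% of all genes tested were called higher and 23.3% lower, and the median log2 change was 1.72 over the members and 0.19 over all genes. Among the sensors, Nlrp3 rose by 3.25 ± 0.52 (log2, SE; limma adjusted p = 0.00414), from a mean of 4.88 ± 4.38 TPM (SD, n = 2) to 46.4 ± 0.05, which is 9.51-fold. Naip5 rose by 2.55 ± 0.43 (5.66-fold), Nlrc4 by 1.76 ± 0.38 (3.68-fold), Naip2 by 1.67 ± 0.18 (3.24-fold) and Aim2 by 1.35 ± 0.27 (2.49-fold), with adjusted p between 0.00128 and 0.0117 in limma. Casp4 rose by 1.94 ± 0.16 (4.09-fold), the smallest adjusted p among the members (0.000533 in limma). Gsdmd rose by 1.31 ± 0.14 (2.5-fold), Casp1 by 0.80 ± 0.11 (1.75-fold) and Pycard by 0.77 ± 0.11 (1.70-fold), so the adaptor and the caspase it serves had the smallest changes. Il1b rose by 2.96 ± 0.78 (limma adjusted p = 0.0223), from 0.90 ± 0.86 TPM (SD, n = 2) to 15.6 ± 12.7, and both its groups varied about as much as their own mean.

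**Figure D2:**
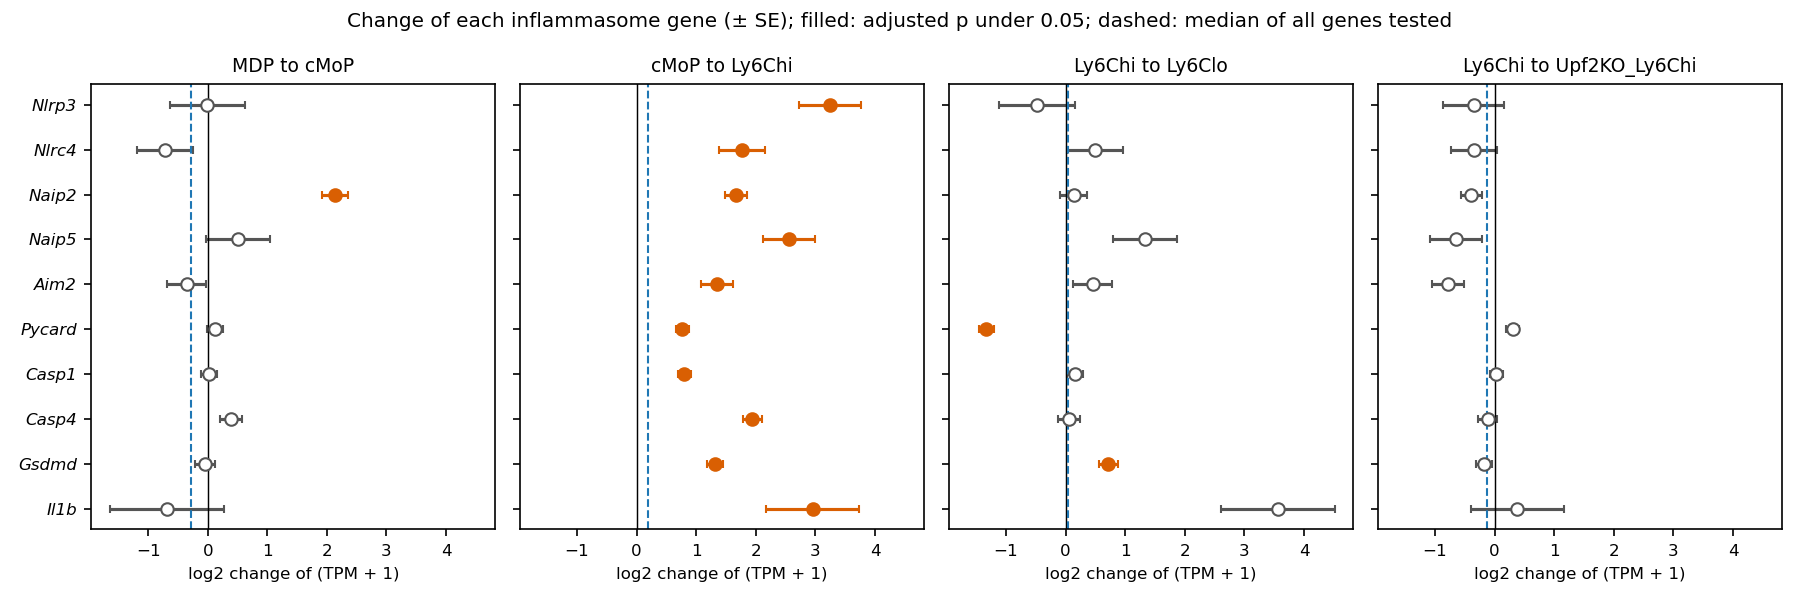
Log2 change of TPM + 1 (x axis) of each member in the 4 comparisons, with bars of 1 SE, filled points for adjusted p under 0.05 and a dashed line for the median of all genes tested. All 10 points are filled and to the right of 0 from cMoP to Ly6Chi, against 1 from MDP to cMoP, 2 from Ly6Chi to Ly6Clo and 0 in the knockout.

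With each library centred on the median of the genes tested, the split over all genes from cMoP to Ly6Chi turned from 4235 higher and 3053 lower to 3354 higher and 4462 lower, and from MDP to cMoP from 177 and 331 to 408 and 295. Under that centring Pycard no longer passed (log2 0.43, limma adjusted p = 0.0988), while the other 9 members still did. With no filter on low values 4 of the 10 passed, and calls were also lost without Ly6Chi replicate 1 (Aim2, Nlrc4), Ly6Chi replicate 2 (Nlrc4, Il1b) or cMoP replicate 2 (Il1b). The sizes rested on the cMoP pair: without replicate 1 and without replicate 2 in turn, the log2 rise was 4.09 and 2.40 for Nlrp3, 3.25 and 1.86 for Naip5, and 2.35 and 1.18 for Nlrc4. For Il1b it was 3.83 without Ly6Chi replicate 1 and 2.08 without Ly6Chi replicate 2. In bulk RNA a larger share of cells with a transcript and more RNA per cell cannot be told apart.

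Genes around the inflammasome moved in the same comparison: 27 of the 42 tested genes of the wider list were called higher and 4 lower, with a median log2 change of 1.07. The list was drawn up with earlier results of these data known, and another 7 of its 49 genes were too low to test (Nlrp6, Nlrp12, Nlrp14, Il1a, Il18r1, Ifi202b, Nlrc3). Several other sensor genes rose, while Mefv (log2 0.97, limma adjusted p = 0.0560) and Nlrp10 (log2 0.12, limma adjusted p = 0.666) did not pass. Ifi204, a DNA-binding relative of Aim2, went from 4.63 and 1.42 TPM in cMoP to 185 and 222 in Ly6Chi, a log2 change of 5.79 ± 0.39. Zbp1, a sensor of Z-form nucleic acid, went from 3.53 and 2.56 to 101 and 143 TPM, and Nlrp1b, the sensor of anthrax lethal factor, from 0.19 and 0.04 to 14.3 and 9.84 TPM. Naip6, a further NAIP gene beside Naip5, went from 11.6 and 3.42 to 50.9 and 39.3 TPM. Among the partners of NLRP3, the kinase gene Nek7 rose by 1.39 ± 0.20, the ATP-gated channel gene P2rx7 by 2.09 ± 0.39 and Txnip by 3.10 ± 0.36. Il18, the second cytokine that caspase-1 matures, rose by 3.56 ± 0.30, from 1.35 and 0.32 to 19.7 and 19.9 TPM. The inhibitors of interleukin 1 rose too: Il1rn, the receptor antagonist, went from 1.18 and 0.85 to 12.2 and 16.95 TPM, and Il1r2, the decoy receptor, rose by 0.998 ± 0.27. The 4 genes called lower were Serpinb1a, an inhibitor of serine proteases (172 and 167 to 53.98 and 61.7 TPM), the deubiquitinase gene Brcc3, and the receptor genes Il1r1 and Il18rap.

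Since the members rose together, the promoter windows of 3 of them are printed: Nlrp3, with the largest log2 rise of the sensors, Casp4, with the smallest adjusted p, and Il1b, the cytokine. RefSeq (GRCm38.p6, the mm10 assembly) gave windows for 9 of the 10 members, 11 windows in all, each from 250 bases before to 50 after a start site. The 250 bases before the start are shown, 5′ to 3′ on the gene's strand. Capitals mark matches on either strand to any of 4 motifs: GAGGAAG (the core bound by PU.1, the myeloid factor of the ETS family), GGGANNNNCC (NF-kB), GAAANNGAAA (interferon response element) and the TATA box. No matches overlap in the windows shown.
Nlrp3, first start, chr11:59541319-59541568, plus strand: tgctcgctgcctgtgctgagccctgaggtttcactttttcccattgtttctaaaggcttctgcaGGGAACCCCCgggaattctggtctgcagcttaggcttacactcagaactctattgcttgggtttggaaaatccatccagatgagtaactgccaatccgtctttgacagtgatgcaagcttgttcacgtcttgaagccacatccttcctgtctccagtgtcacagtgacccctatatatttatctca
Nlrp3, second start, chr11:59542436-59542685, plus strand: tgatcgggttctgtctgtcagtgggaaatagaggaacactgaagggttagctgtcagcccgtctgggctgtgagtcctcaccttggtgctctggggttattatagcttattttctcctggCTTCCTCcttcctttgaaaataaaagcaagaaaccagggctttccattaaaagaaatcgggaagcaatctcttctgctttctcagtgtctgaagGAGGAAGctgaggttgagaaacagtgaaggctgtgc
Casp4, chr9:5308599-5308848, plus strand: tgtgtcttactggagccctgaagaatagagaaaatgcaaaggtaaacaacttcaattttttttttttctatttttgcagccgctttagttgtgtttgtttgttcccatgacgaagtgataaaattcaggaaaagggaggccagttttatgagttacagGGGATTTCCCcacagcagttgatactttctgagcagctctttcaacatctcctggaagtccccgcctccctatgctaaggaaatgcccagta
Il1b, chr2:129371140-129371389, minus strand: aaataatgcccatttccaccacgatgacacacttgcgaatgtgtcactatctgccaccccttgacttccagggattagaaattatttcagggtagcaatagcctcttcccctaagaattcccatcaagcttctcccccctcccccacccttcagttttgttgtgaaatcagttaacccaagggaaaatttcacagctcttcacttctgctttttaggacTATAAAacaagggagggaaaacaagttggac
The first Nlrp3 window holds an NF-kB match at -186 from the start and the second holds 2 PU.1-type matches, at -130 and -36. The second start lies inside intron 1 of Nlrp3 as the intron tables list it. Casp4 has an NF-kB match at -92. Il1b has a TATA box, searched as TATAAA, at -31. Over the 11 member windows, the PU.1-type core was found in 3 (of Aim2, Nlrp3 and Pycard), the NF-kB motif in 3 (1 of Nlrp3 and 2 overlapping Casp4 windows that hold the same site), the TATA box in 2 (of Il1b and Naip5) and the interferon element in 0. Of all 32851 windows of this length, 13.6% hold the PU.1-type core, 20.7% the NF-kB motif, 13.6% the TATA box and 3.44% the interferon element.

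From Ly6Chi to Ly6Clo, Pycard fell and Gsdmd rose. Pycard fell by 1.33 on the log2 scale (SE 0.13, limma adjusted p = 0.00251), from 261 ± 11.7 TPM (SD, n = 2) to 103 in the single Ly6Clo library, below even MDP. Gsdmd rose by 0.72 ± 0.17 (limma adjusted p = 0.0435), from 116 ± 4.01 to 192 TPM. Over all genes 5.9% were called higher and 7.12% lower. Casp1 (log2 0.15 ± 0.13), Casp4 (0.06 ± 0.19) and Naip2 (0.13 ± 0.22) had Ly6Clo levels near those of Ly6Chi. Naip5 had 152 TPM in Ly6Clo against a mean of 60.2 in Ly6Chi (log2 1.33 ± 0.53, limma adjusted p = 0.172). Il1b had the largest difference of the members, 163 TPM against 15.6 ± 12.7 (log2 3.56 ± 0.96), and did not pass (limma adjusted p = 0.0677). In the wider list 0 were called higher and 2 lower, Serpinb1a (13.9 TPM in Ly6Clo) and Ninj1 (33.1 TPM in Ly6Clo, 103 and 88.9 in Ly6Chi), whose protein ruptures the membrane after gasdermin pores form. The Gsdmd call was lost with a pseudocount of 0.1, with no filter and without any 1 of the Ly6Chi or knockout replicates, and the Pycard call was kept in each. With only these 2 groups in the fit, Naip5 and Nlrp3 (log2 -0.48) passed as well.

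Markers of other cells moved with Il1b and with Ly6Clo. The summed level of 11 neutrophil genes was 358 and 477 TPM in cMoP, 1567 in MDP, 1656 and 2038 in Ly6Chi, 1812 and 2444 in the knockout, and 5255 in Ly6Clo. The 8 libraries stood in the same order by Il1b as by this sum, within groups as well as between them. In Ly6Clo, S100a8 and S100a9 made up most of the sum, and the sum was not tested as a measure of neutrophil content. None of the 11 genes was under 1 TPM in every library. S100a8 and S100a9 were at 1544 and 2183 TPM in Ly6Clo, the granule genes Ngp, Camp and Ltf at 517, 255 and 207, and Ly6g at 8.52, against at most 143, 69.4, 59.7 and 2.81 in Ly6Chi. Mmp8, on the same list, went the other way, at 28.2 TPM in Ly6Clo against 151 and 145 in Ly6Chi, and Csf3r was at 260 TPM against 207 and 204. The summed level of 6 macrophage genes was 964 TPM in Ly6Clo and 133 and 138 in Ly6Chi, with C1qa, C1qb and C1qc at 180, 258 and 134 TPM in Ly6Clo and at most 3.42 TPM in every other library. The other genes of that list, Adgre1, Vcam1 and Cd163, made up most of the sum in Ly6Chi and part of it in Ly6Clo. The part of such cells in the Ly6Clo levels of Il1b, Gsdmd, Naip5 and Pycard was not tested. T and NK cell genes (5 of 5) were under 1 TPM in every library.

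**Figure D3:**
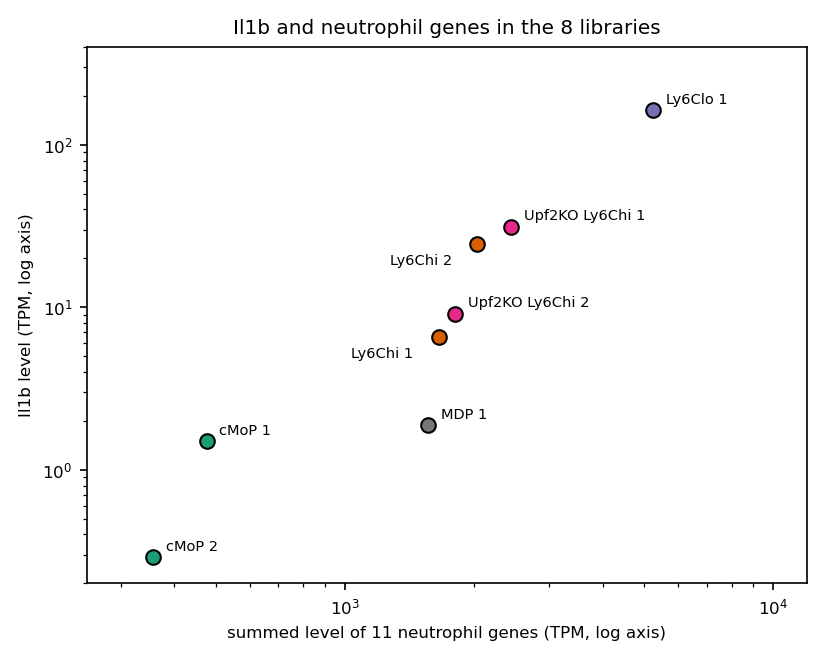
Level of Il1b (y axis, TPM, log scale) against the summed level of 11 neutrophil genes (x axis, TPM, log scale), with 1 point per library. The cMoP libraries are at the lower left (0.29 and 1.5 TPM of Il1b) and Ly6Clo is at the upper right (163 TPM).

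In the Upf2 knockout no member passed the test. Over all genes limma called 0% higher and 0.00762% lower, which is 1 gene of 13126, while 1910 had an unadjusted p under 0.05. The median gene changed by -0.12. Both knockout libraries lay below both Ly6Chi libraries for 6 of the 10 members (Nlrp3, Nlrc4, Naip2, Naip5, Aim2, Gsdmd) and above them for 1 (Pycard), where 45.5% and 22.8% of all genes tested did so. Aim2 had the largest gap, 60.6 ± 0.25 TPM (SD, n = 2) against 105 ± 5.80 (log2 -0.78 ± 0.27, limma adjusted p = 0.336, unadjusted p = 0.0280). Naip5 was at 38.1 ± 2.79 against 60.2 ± 6.43 TPM (log2 -0.65 ± 0.43) and Pycard at 322 ± 10.9 against 261 ± 11.7 (log2 0.30 ± 0.11, limma adjusted p = 0.336). With each library centred on its median, 5 of the 10 members lay above 0 and 5 below, against 3 and 7 without, and Gsdmd turned from -0.17 to 0.03. Casp1 was at 98.8 ± 2.09 against 96.7 ± 2.45 TPM, and its log2 difference of 0.03 ± 0.11 was smaller than its error. In the wider list 0 of 42 passed. Nlrp1b (2.77 and 5.2 against 14.3 and 9.84 TPM) and Pydc4 (13.98 and 15.96 against 42.04 and 54.4 TPM), both named after their values were seen, had the knockout libraries apart from Ly6Chi.

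Some genes followed a member closely over the 8 libraries. By Pearson correlation of log2(TPM + 1), the nearest genes were Fbxo6 for Nlrp3 (r = 0.997), Sgsh for Nlrc4 (0.997), Klf4 for Naip2 (0.995), Pdlim4 for Naip5 (0.993), Alcam for Aim2 (0.994), Ppp1ca for Pycard (0.992), Shtn1 for Casp1 (0.999), Zbp1 for Casp4 (0.997), Krt80 for Gsdmd (0.998) and Gnrh1 for Il1b (0.976). Zbp1 also belongs to the wider list above. The second nearest for Gsdmd was Tnfsf13b (0.997). They were ranked among the other genes tested, leaving out symbols that start with Gm, Mir or Snor or hold Rik. Each of those named is among the highest of these, from libraries that share 5 groups, so they describe likeness only.

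The introns of these genes were read next, through the retention ratio that the authors deposited: the read depth over an intron as a share of that depth plus the spliced reads. At a ratio of 0.1 the depth in the intron is about 0.1 of the depth in and across it. Of the 80 unmarked member introns with at least 10 spliced reads in at least 4 libraries, 15 (18.8%) had a mean ratio of at least 0.1, and of all 90136 such introns 4.48% did. The median ratio was 0.0186 over the member introns and 0.0064 over all. The 90 member introns all match introns of GENCODE mouse release 21, with 70 between coding exons and 15 in the 5′ untranslated part. Aim2 counts more than once here, since its introns 8 and 9 share an end. Intron 9 follows an annotated first exon that ends within intron 8, so the depth over intron 8 can include exon signal.

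The exon ends that meet when 5 of the retained introns are removed are printed below, together with a pair that may bear on read assignment. Each line holds 15 exon bases on either side of the junction in the spliced RNA, 5′ to 3′, with the last base of the upstream exon and the first of the downstream exon in capitals (GENCODE, mm10).
Gsdmd intron 2, chr15:75863629-75864243: gtgctccagaaccaGAaccggagtgttttg
Gsdmd intron 3, chr15:75864437-75864948: catgcagcatgaaaGGcaccttcagcagcc
Casp1 intron 4, chr9:5302530-5302997: gaaaatccttcagaGAtttatccaataatg
Casp4 intron 2, chr9:5321513-5322819: gccaccatggtgaaGCtaatctggaaatgg
Casp4 intron 3, chr9:5322918-5323624: gaaaagacacaagaAAtttacccaataaag
Naip5 intron 2, chr13:100230785-100233339: tacctatggtatcaGCttactgcaatgaca
Naip2 intron 6, chr13:100179469-100182904: tacctatggtatcaGCttactgcaatgaca
The last 2 lines are identical. Of 8 Naip5 junctions, 3 have the same 30 bases as a Naip2 junction and 4 share at least 28 of them. The reads are 100-base pairs, and the bases beyond these windows were not compared. Whether spliced reads were exchanged between NAIP copies was therefore not tested. The sources used here do not say how reads with several matches were counted, and the values of Naip5 and Naip2 are uncertain to that extent.

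Gsdmd kept neighbouring introns in every library. Intron 2 (exons 2 to 3 of 11, coding) had a ratio of 0.246 in MDP and 0.155 and 0.0597 in the cMoP pair, then 0.261 and 0.243 in the Ly6Chi pair, 0.368 in Ly6Clo and 0.201 and 0.198 in the knockout pair. In Ly6Clo 409 and 539 reads crossed its left and right boundary against 695 spliced reads, and in cMoP replicate 2 the numbers were 21, 23 and 323. Intron 3 followed it, with 0.199 in MDP and 0.142 and 0.0466 in the cMoP pair, then 0.2404 and 0.2145 in the Ly6Chi pair, 0.331 in Ly6Clo and 0.1804 and 0.1705 in the knockout pair. Their neighbours were spliced: intron 1 did not pass 0.0014 and intron 4 did not pass 0.0265 in any library. Further on, introns 9 and 10 had mean ratios of 0.0908 and 0.114. An annotated Gsdmd transcript reads through intron 9, although that intron carries no mark for a known exon. The library with the highest Gsdmd level, Ly6Clo, also had the highest ratio at introns 2, 3 and 10.

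Casp1, Casp4 and Aim2 also had their highest ratios in Ly6Clo. Casp1 intron 4 (exons 4 to 5 of 10, coding) had 0.151 in MDP and 0.133 and 0.0461 in the cMoP pair, then 0.188 and 0.206 in the Ly6Chi pair, 0.307 in Ly6Clo and 0.127 and 0.135 in the knockout pair. None of the other 8 Casp1 introns passed 0.0711 in any library. Casp4 intron 3 had 0.151 in MDP, 0.0752 and 0.0415 in the cMoP pair, 0.0813 and 0.0802 in the Ly6Chi pair, 0.199 in Ly6Clo and 0.0463 and 0.0863 in the knockout pair. Casp4 intron 2, next to it, went from 0.0505 and 0.0538 in Ly6Chi to 0.193 in Ly6Clo. Aim2 intron 7, chr1:173452949-173454223 between untranslated exons 6 and 7 of 12, was the most retained intron of the sensors apart from Naip5: MDP had 0.4702, the cMoP pair 0.365 and 0.152, the Ly6Chi pair 0.532 and 0.536, Ly6Clo 0.614 and the knockout pair 0.287 and 0.3798. Its boundaries were uneven: 156 and 160 reads crossed the left one in Ly6Chi and 19 and 31 the right one, whereas Ly6Clo had 208 on the left and 156 on the right.

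**Figure D4:**
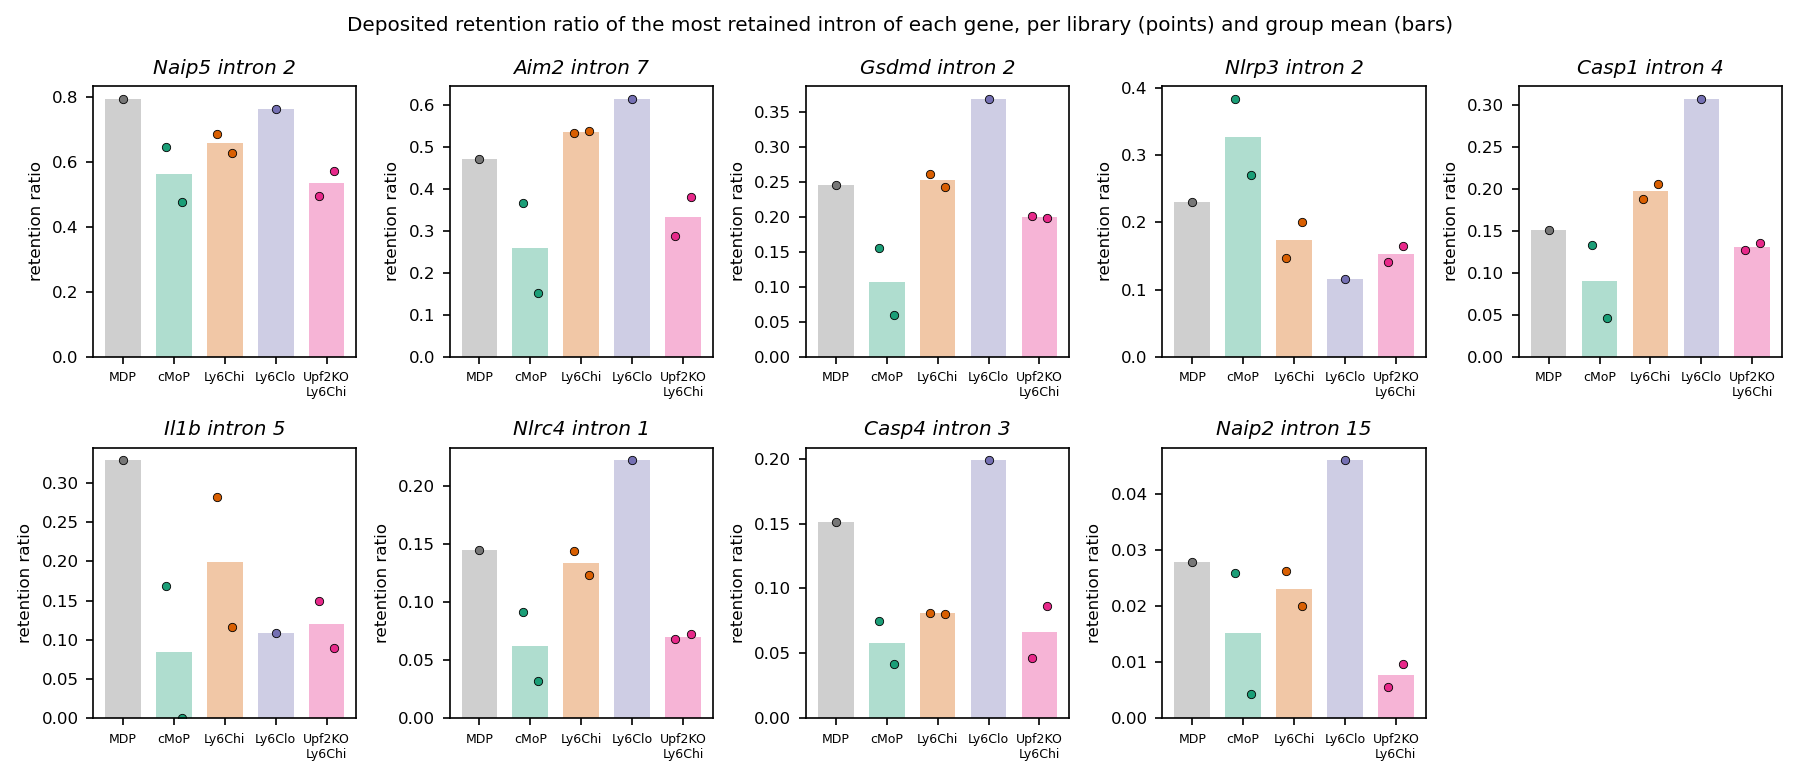
Deposited retention ratio (y axis, from 0) of the most retained intron of each gene in the 8 libraries, with 1 point per library and bars for the group mean. Ly6Clo is the highest library for Aim2 (0.614), Gsdmd (0.368), Casp1 (0.307), Nlrc4, Casp4 and Naip2. The lowest is cMoP replicate 2 for 8 of the 9 introns, the exception being Nlrp3. For Il1b that library had only 1 boundary and 2 spliced reads over 3 unmarked introns, so its place there carries no weight. Pycard is not shown, since its 1 unmarked intron did not pass 0.00402.

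The remaining members differed. Naip5 intron 2 (exons 4 to 5 of 14) had the highest ratio of the unmarked member introns, between 0.479 (cMoP replicate 2) and 0.795 (MDP, 10 spliced reads), and it has the same junction bases as Naip2 intron 6, whose own ratio never passed 0.0133. Nlrp3 intron 2, chr11:59542868-59543068 in the 5′ untranslated part, went the other way from the caspases: it was at 0.384 and 0.271 in cMoP, 0.231 in MDP, 0.148 and 0.201 in Ly6Chi, 0.1403 and 0.165 for the knockout pair and 0.116 in Ly6Clo. In cMoP replicate 1 Nlrp3 had 259 boundary and 492 spliced reads over its 10 introns, 52.6 per 100, and in replicate 2 it had 19 and 142, or 13.4 per 100. Nlrp3 intron 1 was crossed at its right boundary by 56 and 57 reads in Ly6Chi and at its left by 0, and the second start of Nlrp3 lies within it. Nlrc4 intron 1 was at 0.222 in Ly6Clo, 0.144 and 0.123 in Ly6Chi and 0.0679 and 0.0728 in the knockout, from 43 to 89 spliced reads. Naip2 was spliced nearly to completion, its highest mean ratio being 0.0207 at intron 15. Il1b intron 5 had 0 to 10 spliced reads in the precursors, and 0.282 and 0.116 for the Ly6Chi pair, 0.109 for Ly6Clo and 0.1496 and 0.0898 for the knockout pair. Pycard intron 3 is marked for a known exon, and an annotated transcript reads through it. Its ratio of 0.832 to 0.943 was left out.

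**Figure D5:**
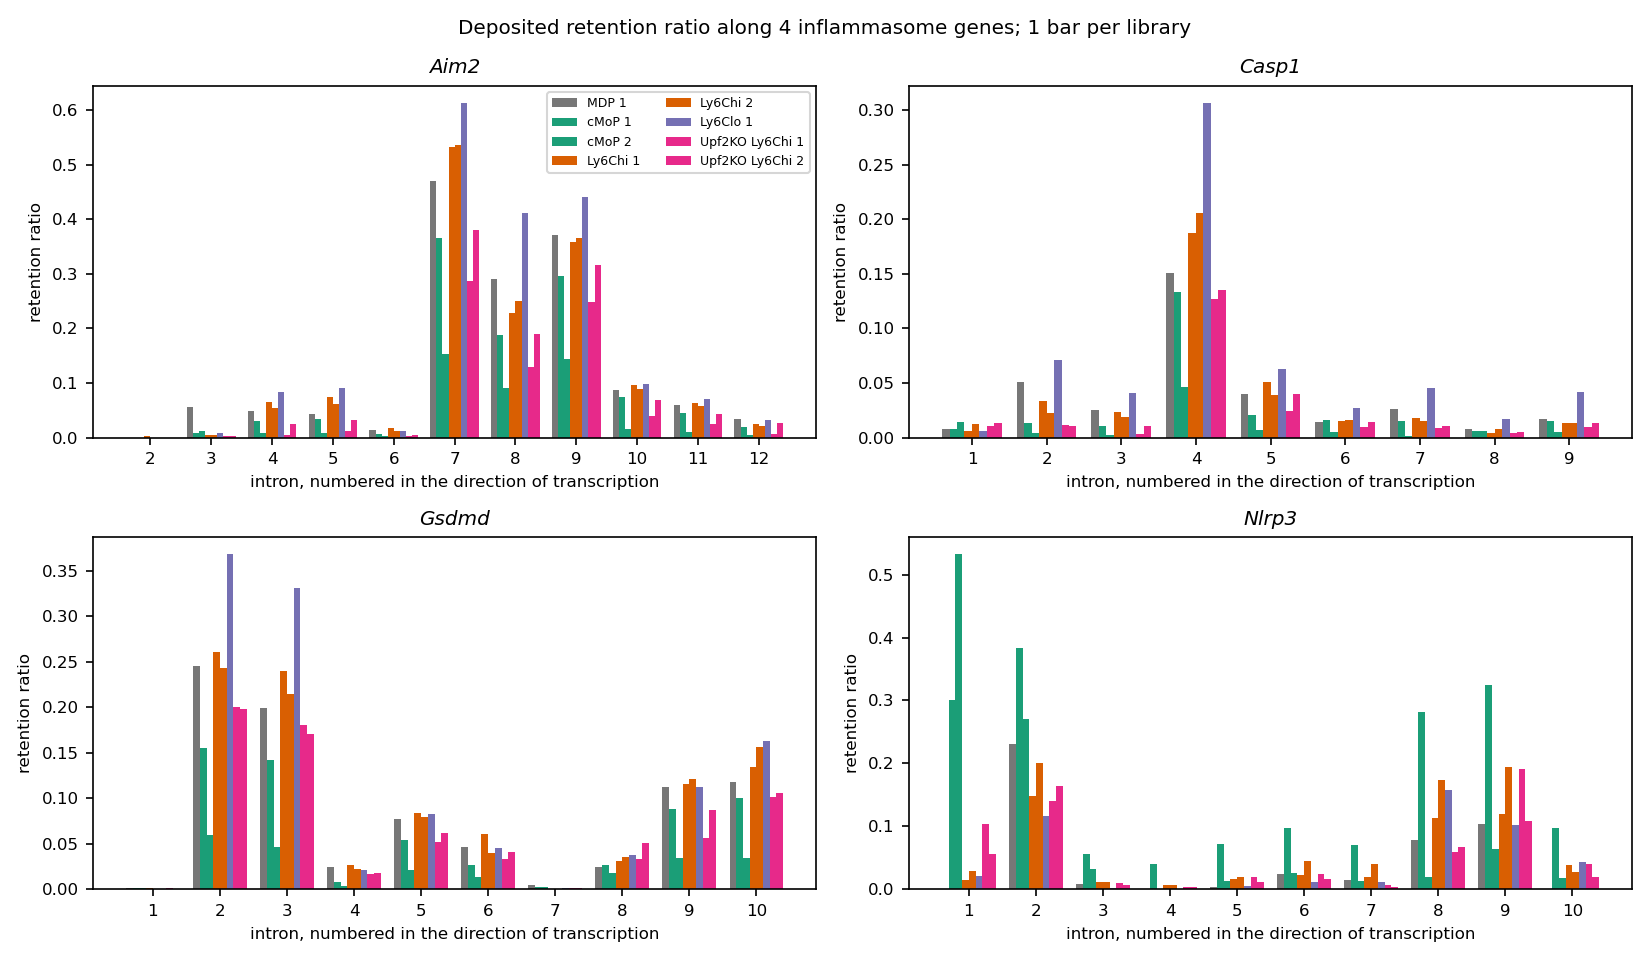
Deposited retention ratio (y axis) of the unmarked introns of Aim2, Casp1, Gsdmd and Nlrp3, numbered in the direction of transcription (x axis), with 1 bar per library. The ratio is high mainly at few introns: 7 to 9 in Aim2, 4 in Casp1 and 2, 3 and, less so, 10 in Gsdmd. An annotated first exon ends within Aim2 intron 8, so the ratio there can include exon signal. In Nlrp3, cMoP replicate 1 stands out.

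No member passed the tests of retention, in which boundary reads were set against spliced reads with edgeR's quasi-likelihood test. The tests covered 58 member introns of 9 members among 48132 introns, and the same 9 members among 8112 genes with their introns summed. Il1b had too few reads for either. The test called 0% of all introns from MDP to cMoP, 0.0145% from cMoP to Ly6Chi, 0% from Ly6Chi to Ly6Clo and 0.00208% in the knockout, where 4020, 5234, 2391 and 3342 had an unadjusted p under 0.05. Over genes it called 0%, 0.0123%, 0.0123% and 0.0247%, and 702, 1222, 386 and 516 had an unadjusted p under 0.05. A near-empty list of calls over all introns leaves the members' lack of calls without weight.

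From MDP to cMoP and on to Ly6Chi, retention of Gsdmd, Casp1, Aim2 and Naip5 was lowest in the middle. The median log2 change over all genes was -0.35 from MDP to cMoP and 0.31 from cMoP to Ly6Chi. Per 100 spliced reads over all its introns, Gsdmd had 23.2 boundary reads in MDP, 17.2 and 7.59 in cMoP and 26.7 and 24.8 in Ly6Chi. Casp1 had 10.5 in MDP, 8.26 and 3.80 in cMoP and 12.5 and 12.04 in Ly6Chi, and Aim2 35.4, 30.2 and 16.1, and 41.4 and 39.5. Naip5 had 30.9 in MDP, 15.9 and 11.7 in cMoP and 20.4 and 19.3 in Ly6Chi. From cMoP to Ly6Chi the log2 change was 1.15 ± 0.35 for Gsdmd, 1.11 ± 0.34 for Casp1 and 0.85 ± 0.33 for Aim2, with edgeR adjusted p between 0.302 and 0.303, and the median over all genes was 0.31. Nlrp3 stood at -0.77 ± 0.53. With TMM scaling of the boundary reads and the spliced reads apart, these became 0.74, 0.70, 0.45 and -1.21. Under that scaling the median over all genes was 0.02 from MDP to cMoP and -0.08 from cMoP to Ly6Chi. Of the 58 introns, 13 had an unadjusted p under 0.05 in this comparison (22.4%, against 10.9% of all introns), 11 of them higher, and 11 had one from MDP to cMoP (18.97% against 8.35%), 10 of them lower. The split by direction over all introns was not counted, but their median moved the same way, by 0.38 and -0.39. In each comparison 29 of the 58 member introns lay above that median. Introns of the same gene are not separate observations. Without cMoP replicate 1, the test called 16 member introns and 4 members from cMoP to Ly6Chi (Gsdmd 1.76, Casp1 1.69, Aim2 1.33, Casp4 0.81) and 12 introns and 5 members from MDP to cMoP, where over all introns it called 6808 higher and 180 lower, and 140 and 4804. The cMoP library that remains is the one with the fewest boundary reads and the strongest 3′ lean. DESeq2 called Gsdmd higher from cMoP to Ly6Chi with all libraries (log2 0.78, adjusted p = 0.0392).

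In Ly6Clo, 20 of the 58 member introns (34.5%) had their highest boundary share, and so did 27.8% of all introns tested, while cMoP replicate 2 held the lowest share for 60.3% of member introns and 43.9% of all. Aim2 had 57.2 boundary reads per 100 spliced in Ly6Clo against 41.4 and 39.5 in Ly6Chi, Gsdmd 33.0 against 26.7 and 24.8, Casp4 22.6 against 14.3 and 14.4, and Casp1 18.02 against 12.5 and 12.04. Nlrp3 (16.2), Naip5 (18.8) and Nlrc4 (11.8) lay within or below the range of the 2 Ly6Chi libraries, and Naip2 (4.10) and Pycard (6.77) below it. The largest intron change was that of Casp4 intron 2, 2.12 ± 0.51 (unadjusted p = 0.00164, edgeR adjusted p = 0.948). It passed in edgeR with only these groups in the fit (adjusted p = 0.00493) or without either cMoP replicate. Casp1 over all its introns passed in edgeR with only these groups (0.56, adjusted p = 0.0457).

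In the knockout, where loss of nonsense-mediated decay is known to spare transcripts with premature stop codons, no member passed as more retained. All 9 tested members had a log2 change below 0 over their introns, from -0.66 ± 0.30 for Naip5 to -0.06 ± 0.48 for Nlrp3, but with TMM scaling of the 2 kinds of read apart 5 of the 9 lay above 0. The median of all genes was -0.24 before that scaling, and 4 of the 9 members lay above it. Both knockout libraries lay below both Ly6Chi libraries for 22 of the 58 member introns (37.9%) and above for 6 (10.3%), against 37.5% and 9.42% of all introns. Gsdmd had 19.7 and 21.7 boundary reads per 100 spliced in the knockout and 26.7 and 24.8 in Ly6Chi, and Casp1 8.43 and 9.18 against 12.5 and 12.04. Aim2 intron 7 had the lowest adjusted p of the member introns (log2 -1.32 ± 0.48, edgeR adjusted p = 0.716) and passed with only these groups in the fit (adjusted p = 0.0491). The knockout libraries also leaned further to the 3′ end than Ly6Chi: over Naip2 the log2 ratio was 1.69 and 1.03 in the knockout against 0.39 and 0.49, and over Gsdmd 0.01 and -0.02 against -0.18 and -0.16, while over Casp1 the pairs overlapped. The part of that lean in these values was not tested.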

How the data were processed

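The 8 libraries were sequenced from stranded polyA libraries as 100-base pairs, per the labels' protocols. Per the submitters' processing notes, FastQC, Trimmomatic, STAR 2.5.2a, RSEM and the builds mm10 and hg38 were used. The deposited expression table is named for FPKM, but its columns add up to the total that defines TPM, so the authors' values were treated as TPM, where the design had assumed either unit. The authors' intron tables give read counts at each boundary and across the splice, the depth of signal over the intron, and the fraction of it covered together with a retention ratio, also a fraction. The program behind them is not stated in these sources. In 97.6% of 706136 values with at least 10 spliced reads, the ratio equals depth over depth plus spliced reads within 0.01.

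Expression was tested with limma 3.58.1 (R 4.3.3) on log2(TPM + 1), over genes with at least 1 TPM in 2 libraries, in 1 fit of all groups, so that single libraries borrow their spread from 3 replicated pairs. Retention was tested with edgeR 4.0.16 as boundary against spliced reads within a library, over unmarked introns with at least 20 reads of both kinds together in every library and 20 boundary reads in all. Log2 retention changes are thus of the odds of a boundary read. P-values were adjusted by Benjamini-Hochberg over all features, with 0.05 as the threshold. DESeq2 1.42.0 was an alternative. The limma fit from cMoP to Ly6Chi and the edgeR fit of introns in the knockout were tested on simulated data. The alternatives and the other steps were not. Named introns were the most retained of each gene with at least 10 spliced reads in 4 libraries and those tested, and some were named after their values were seen. The members and the lists of genes and markers were chosen with earlier results of these data known.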

Additional observations from a re-analysis of the deposited data

How the results depend on the processing

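No called result turned its direction under an alternative. Of 134 recounts of called members, 104 stayed within 1.5 times, but these include counts of 0 that stayed 0. The knockout expression test and all retention tests had 0 called members to begin with. The share therefore says little about how firm the calls are. For expression, the 1 member called from MDP to cMoP became 0 with no filter or with only the groups compared in the fit, and 0 to 4 leaving out 1 library. The 10 from cMoP to Ly6Chi became 4 with no filter. The 2 from Ly6Chi to Ly6Clo became 1 with a pseudocount of 0.1 or no filter, 4 with only those groups, and 1 to 4 leaving out 1 library. For introns, the 0 called members became 0 to 12 (MDP to cMoP), 0 to 16 (cMoP to Ly6Chi), 0 to 1 (Ly6Clo) and 0 to 1 (knockout) leaving out 1 library. They became 1 with TMM scaling from cMoP to Ly6Chi (Nlrp3 intron 5, log2 -3.04) and 1 with only the groups compared in Ly6Clo and in the knockout. For whole genes, the 0 became 0 to 5 (MDP to cMoP) and 0 to 4 (cMoP to Ly6Chi) leaving out 1 library, 1 with DESeq2 from cMoP to Ly6Chi, and 1 with only the groups compared in Ly6Clo and in the knockout (Casp1, log2 -0.48). Beyond the smaller number of samples or the larger number of features tested, the cause was not tested. A lone library left in a group is assumed to vary like the other groups.

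Calls over all genes and introns moved as well. Against 177 higher and 331 lower from MDP to cMoP, 4235 and 3053 from cMoP to Ly6Chi, 774 and 934 in Ly6Clo and 0 and 1 in the knockout, the fit with no filter called 146 and 1486, 1043 and 929, 1778 and 467, and 30 and 59. With only the groups compared it called 0 and 0 from MDP to cMoP and 1601 and 1692 in Ly6Clo. Leaving out 1 library gave 47 to 1064 higher and 59 to 3853 lower from MDP to cMoP, 2164 to 5510 and 1595 to 3284 from cMoP to Ly6Chi, and 260 to 1783 and 327 to 1900 in Ly6Clo. With a pseudocount of 0.1 the first comparison had 157 and 143. Over introns, with 2 higher and 5 lower from cMoP to Ly6Chi and 1 and 0 in the knockout, TMM called 82 and 115, and 50 and 12. DESeq2 called 31 and 49, and 15 and 0. A minimum of 5 reads called 12 and 11, and 15 and 1, and keeping marked introns called 5 and 6, and 88 and 2. With only the groups compared, 334 and 89 were called in Ly6Clo and 48 and 344 in the knockout, against 0 and 0, and 1 and 0. Over genes with introns summed, 0 higher and 1 lower from cMoP to Ly6Chi became 53 and 78 with TMM and 60 and 59 with DESeq2, and 2 and 0 in the knockout became 20 and 2, 24 and 2, and 63 and 0 with marked introns.

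The groups with 2 libraries share replicate numbers, but the labels do not say that a number marks a common animal or day. The deviations of same-numbered libraries from their group means correlated at 0.063 (cMoP and Ly6Chi), -0.136 (cMoP and knockout) and -0.130 (Ly6Chi and knockout) over 13126 genes. With the replicate block, 10 members were called from cMoP to Ly6Chi in expression and 0 in the knockout, 0 in either retention test, and 3693 genes higher and 2638 lower from cMoP to Ly6Chi.

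The depth of 28925018 spliced reads and more leaves few reads in weakly expressed members: Nlrp3 had 19 boundary reads in cMoP replicate 2 and Il1b 1, so retention of Nlrp3 in that library, and of Il1b in the precursors, rests on few reads.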

Other observations

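Zbp1, which also had the closest profile to Casp4, had 1.84 TPM in MDP, 3.53 and 2.56 TPM for the cMoP pair, 101 and 143 for the Ly6Chi pair, 105 for Ly6Clo and 88.8 and 117 for the knockout pair. Pydc4, a pyrin-domain gene beside Aim2 and the Ifi200 genes, was under 1 TPM in the 3 precursor libraries, at 42.04 and 54.4 TPM in Ly6Chi and at 31.2 TPM in Ly6Clo. Naip6 was at 99.5 TPM in Ly6Clo, 50.9 and 39.3 TPM in Ly6Chi, and 16.8 and 25.1 TPM in the knockout.

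Serpinb1a, an inhibitor of serine proteases, was at 142 TPM in MDP, 172 and 167 TPM in cMoP, 53.98 and 61.7 in Ly6Chi, and 13.9 in Ly6Clo. Its knockout libraries, at 56.9 and 54.96 TPM, lay within the range of Ly6Chi or close to it.

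Summed erythroid genes ranged from 2.91 TPM (cMoP replicate 2) to 215 TPM (Ly6Clo), with 126 TPM in Ly6Chi replicate 2 against 24.4 TPM in replicate 1, the same replicate of Ly6Chi that had more Il1b. Summed B and plasma cell genes lay between 266 and 774 TPM. The part of either in the values of the members was not tested.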
